A study of Mus musculus with 16 samples.

Results

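The interferon-induced genes described here are 8 mouse genes, Stat2, Irf7, Ifit1, Ifit3, Rsad2, Irgm1, Gvin1 and Cxcl9, followed in the colon of mice that differed in the bacteria they carried. They were chosen by name, as well-known targets of interferon that the deposited annotation names. Of the 8, 5 (Irf7, Ifit1, Rsad2, Irgm1 and Cxcl9) have a value on each of 16 arrays, among 23332 transcript clusters, the units that collect the probes of 1 gene. Only 2039 of these clusters carry a symbol in the annotation used, so a gene not found there may still be on the array. The other 3 (Stat2, Ifit3 and Gvin1) were measured in a gene-level table of 1793 genes, which the authors had selected by an analysis of variance over 3 of the 4 groups at a threshold of 0.05. That selection is part of why these 3 genes are seen at all, so their differences among those 3 groups are not independent of it. Differences of the fourth group, CONV, from any of those 3 use the same selected columns and are not independent of it either.

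All animals were outbred Swiss Webster mice that began germ-free, and RNA was taken from the whole colon and hybridised to Affymetrix mouse Exon ST1.0 arrays. The GF group stayed germ-free. The UCC2003 group was colonised with a single bacterium, Bifidobacterium UCC2003, and the TadA mutant group with Bifidobacterium carrying a mutant of the gene TadA, which belongs to the tight adherence pilus of the bacterium. The CONV group consisted of germ-free mice that were re-conventionalised, that is, given a complex microbiota. Each group had 4 arrays, labelled as biological replicates (the design text states 5 animals for CONV). Age, sex, litter, cage and the time since colonisation are not given in the sources used here, so p-values measure the spread between these animals.

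Interferons are secreted proteins that cells release on sensing microbial nucleic acid or, for interferon gamma, that T and NK cells release. Type I and type III interferons act on their target genes mainly through the interferon-stimulated response element (ISRE), a short DNA motif. Interferon gamma acts mainly through another motif, the gamma-activated site (GAS). In the gut, the microbiota is known to keep a low tonic level of interferon signalling in immune cells and epithelium.

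The promoters were examined first, because the ISRE is what most of these genes are known to share. RefSeq promoter windows of GRCm38.p6, running from 250 bases before to 50 bases after the start of each gene, were found for 7 of the 8 genes. They were searched on either strand for the ISRE core GAAANNGAAA (read as TTTCNNTTTC on the opposite strand) and for the GAS core TTCNNNGAA, which reads the same on either strand. The ISRE core occurred in 5 of the 7 windows, against 3.44% of all 32851 windows and 51 of the 135 windows of other genes on the interferon lists described below. Those 135 also hold ligands, receptors, sensors and signalling genes. Among the lists of induced genes, it occurred in 9 of 9 GTPases and 21 of 51 antiviral effectors. It occurred in 1 of 4 chemokines and receptors and in 5 of 17 antigen-processing genes. The GAS core occurred in 0 of the 7, against 8.3% of all windows and 36 of the 135. Matches are given below 5′ to 3′ on the strand of the gene, with the matched bases in capitals and 10 bases on each side in lower case.
Stat2 (chr10:128270266-128270295, plus strand): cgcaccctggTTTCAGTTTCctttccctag
Ifit1 (chr19:34640775-34640823, plus strand): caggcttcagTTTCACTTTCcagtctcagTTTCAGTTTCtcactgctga
Ifit3 (chr19:34583363-34583426, plus strand): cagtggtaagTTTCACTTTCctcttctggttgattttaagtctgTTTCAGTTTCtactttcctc
Rsad2 (chr12:26456553-26456582, minus strand): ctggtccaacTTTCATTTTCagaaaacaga
Irgm1 (chr11:48871425-48871460, minus strand): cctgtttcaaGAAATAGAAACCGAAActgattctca

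Ifit1 and Ifit3, neighbours on chromosome 19, each held 2 separate matches, starting 104 and 85 bases before the start of Ifit1 and 156 and 122 bases before that of Ifit3. The 2 matches of Irgm1 overlapped and lay closest to the start, from 30 bases before it. Rsad2 held 1 match at 120 bases and Stat2 1 at 222 bases. The windows of Irf7 and Cxcl9 held no match, which says only that these letters are not in this stretch.

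**Figure D1:**
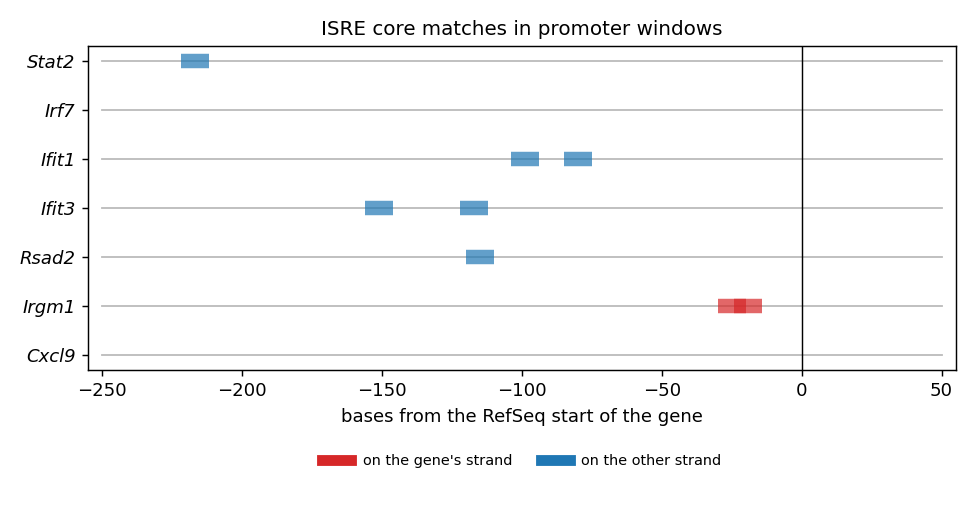
Positions of ISRE core matches in the promoter windows of 7 interferon-induced genes; the x axis is the distance in bases from the RefSeq start of the gene and each block is 1 match, coloured by strand. The matches of Irgm1 lie nearest the start and that of Stat2 farthest from it, at 222 bases; Irf7 and Cxcl9 show none.

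Before the genes are taken in turn, 2 arrays need naming. Replicate 4 of UCC2003 had the highest value of its group for 5 of 5 array-measured interferon-induced genes, while it was the highest for 30.2% of all clusters and for 7 of 24 other genes on the interferon lists. For Cxcl9 its lead over the next array was only 0.05 log2 units. Replicate 4 of the TadA mutant was the highest for 4 of 5, against 30.6% of all clusters and 5 of 24 other listed genes. In the gene-level table, the last UCC2003 column was the highest of its group for 3 of 3 interferon-induced genes and 8 of 13 other listed genes, against 33.1% of all genes. The last TadA mutant column was the highest for 2 of 3 and 8 of 13, also against 33.1%. The results of the 5 array genes are therefore given with these arrays and without them. Leaving out the highest array of a group must lower the mean of that group, so the direction of such a change is not a separate result. Across the series, array medians lay between 5.91 and 6.03 log2 units and pairwise correlations over all clusters between 0.938 and 0.979. The colon epithelial markers Krt20 and Phgr1 were bright on every array, with a summed level between 11.83 and 12.28. Cpa1, a digestive enzyme of the exocrine pancreas, ranged from 4.39 to 13.29 and was high on arrays of each group, so colon samples differed in how much pancreatic RNA they held. The groups were not balanced in this, with a Cpa1 mean of 11.07 in GF, 8.98 in UCC2003, 8.57 in CONV and 7.58 in the TadA mutant. Cpa1 stood at 4.39 on UCC2003 replicate 4 and at 7.49 on TadA mutant replicate 4.

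The clearest result was in CONV mice: Cxcl9 and Gvin1 rose, about 4-fold and 7-fold over GF. The other interferon-induced genes, Ifit1, Rsad2, Irf7, Irgm1, Stat2 and Ifit3, did not pass the test there. This does not show that they were unchanged. The confidence interval of CONV minus GF reached up to 1.36 log2 units for Ifit1, 1.21 for Rsad2 and 0.77 for Irf7. The fold of Gvin1 rests on GF columns that took part in the selection of its table. No interferon-induced gene passed the test between either Bifidobacterium group and GF, or between the 2 Bifidobacterium groups. Tests are limma's moderated test on log2 signal over all 16 arrays, with p-values adjusted by the Benjamini-Hochberg method over all features and a gene called at an adjusted p under 0.05. Because the RNA is from whole colon, more cells of a type and more RNA per cell cannot be told apart. Where groups are said below not to overlap, the share of all features that do the same was not counted, so this is a description.

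Cxcl9, a chemokine that interferon gamma induces and that attracts CXCR3-bearing T cells, is cluster 6939987 on chromosome 5. In replicate order its log2 signal was 8.002, 7.42, 6.70 and 7.13 in CONV and 4.99, 5.42, 5.18 and 5.37 in GF. It was 5.28, 5.34, 5.34 and 5.40 in UCC2003 and 5.35, 5.18, 5.23 and 5.81 in the TadA mutant. Every CONV array lay above every array of the other groups, by at least 0.89 log2 units, while the 12 others overlapped. The mean was 7.31 ± 0.55 (SD, n = 4) in CONV, 5.39 ± 0.29 in the TadA mutant, 5.34 ± 0.05 in UCC2003 and 5.24 ± 0.20 in GF, and the last 3 did not differ beyond their spread. CONV exceeded GF by 2.07 ± 0.22 log2 units (SE), a 4.21-fold difference (limma adjusted p = 0.000114). It exceeded UCC2003 3.93-fold (limma adjusted p = 0.000202) and the TadA mutant 3.79-fold (limma adjusted p = 0.000298). UCC2003 differed from GF by 0.10 log2 units (95% interval -0.37 to 0.56), and the TadA mutant by 0.15 (-0.32 to 0.62). The 3 CONV differences share the CONV arrays. Without any 1 array the CONV minus GF difference stayed between 1.84 and 2.28, and with the pancreatic level as a covariate it was 2.07. Without both replicate 4 arrays CONV exceeded UCC2003 by 1.99 and the TadA mutant by 2.06, and UCC2003 and the TadA mutant differed from GF by 0.08 and 0.01. In the authors' deposited table Cxcl9 was 4.36-fold higher in CONV than in GF, with an adjusted p of 0.00915. Fold changes of CONV in the authors' deposited table are not those of the 4 CONV arrays used here. For Ifit1, for example, the authors' deposited table has CONV 1.48-fold over GF, 1.15-fold over UCC2003 and 1.07-fold over the TadA mutant, where the arrays here give 1.15-fold over GF and differences of -0.15 and -0.26 log2 units from the other groups.

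Gvin1, a very large interferon-inducible GTPase on chromosome 7, had the widest range of group means in the gene-level table among the interferon-induced genes. Columns of this table are known by group but not by replicate. The 4 columns of CONV held 8.26, 8.27, 7.43 and 8.51, and those of GF 5.17, 5.64, 6.01 and 4.50. Those of UCC2003 held 6.12, 6.01, 6.07 and 6.64, and those of the TadA mutant 6.59, 6.43, 6.58 and 7.07. CONV did not overlap any other group, and the TadA mutant did not overlap GF, whereas UCC2003 overlapped GF. In order of level the means were 8.12 ± 0.47 (SD, n = 4) in CONV, 6.67 ± 0.28 in the TadA mutant, 6.21 ± 0.29 in UCC2003 and 5.33 ± 0.65 in GF, with the TadA mutant and UCC2003 overlapping each other. CONV exceeded GF by 2.79 ± 0.29 log2 units (SE), 6.89-fold (limma adjusted p = 0.000190), and UCC2003 by 1.91, 3.76-fold (limma adjusted p = 0.00710). The difference of 1.45 from the TadA mutant did not pass (limma adjusted p = 0.126), nor did TadA mutant minus GF at 1.34 (0.548) or UCC2003 minus GF at 0.88 (0.652). Without column 3 of CONV the CONV minus TadA mutant difference was 1.68, and without column 4 of GF it was 1.45, and it was called in each case. Those were the only 2 of 16 runs leaving out 1 column that called it, and the limma adjusted p reached 0.439 in the others. In this table the adjustment was made over 35860 tests, the number from which a threshold of 0.05 would by itself leave 1793 genes. Gvin1 belongs to a family of similar copies, and whether its probes separate them is not given in the sources used here.

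Irgm1, an immunity-related GTPase that controls autophagy and other GTPases of its family, is cluster 6787896 on chromosome 11. Its log2 signal was 8.19, 7.09, 6.86 and 7.77 in CONV and 6.41, 6.79, 6.71 and 6.28 in GF. It was 6.62, 6.81, 6.63 and 7.52 in UCC2003 and 6.78, 7.07, 7.12 and 7.53 in the TadA mutant. All CONV arrays lay above all GF arrays, by 0.06 log2 units at the nearest, and replicate 4 was the highest in each Bifidobacterium group. The order of means was CONV (7.47 ± 0.61), TadA mutant (7.12 ± 0.31), UCC2003 (6.89 ± 0.43) and GF (6.55 ± 0.24), and neighbours in it overlapped. CONV minus GF was 0.93 ± 0.28 log2 units (SE), which did not pass (limma adjusted p = 0.130). UCC2003 minus GF was 0.34 (limma adjusted p = 0.733), or 0.14 without both replicate 4 arrays. TadA mutant minus GF was 0.57 (limma adjusted p = 0.813), or 0.44 without them.

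**Figure D2:**
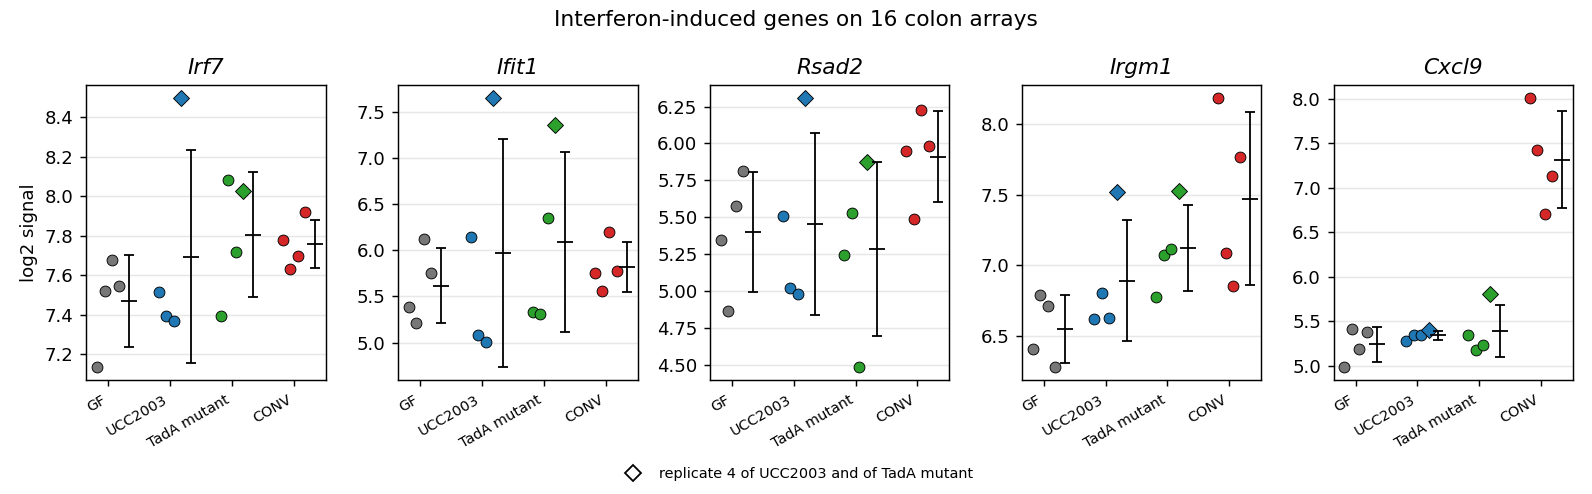
Log2 signal (y axes, separate scales) of the 5 interferon-induced genes with array values in GF, UCC2003, TadA mutant and CONV colon; points are arrays, diamonds mark replicate 4 of UCC2003 and of the TadA mutant, and bars give the mean and SD of 4 arrays. The 4 CONV arrays of Cxcl9, between 6.70 and 8.002, lie above all others, and the diamonds lie at or near the top of their groups for Ifit1, Irf7, Rsad2 and Irgm1.

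Neither of the antiviral effectors with array values, Ifit1 and Rsad2, passed a test. Ifit1, which binds viral RNA lacking the cap methylation of the host, is cluster 6869334 on chromosome 19. Its log2 signal was 6.15, 5.08, 5.01 and 7.65 in UCC2003 and 5.33, 5.31, 6.35 and 7.36 in the TadA mutant. It was 5.38, 5.21, 6.12 and 5.75 in GF and 5.76, 5.56, 6.20 and 5.77 in CONV. The 2 highest values of the 16 were replicate 4 of UCC2003 and of the TadA mutant, which stood 2.24 and 1.69 log2 units above the mean of the other 3 arrays of their group. The SD was accordingly 1.23 in UCC2003 and 0.98 in the TadA mutant, against 0.41 in GF and 0.27 in CONV, and all 4 groups overlapped. UCC2003 minus GF was 0.36 ± 0.54 (SE; limma adjusted p = 0.861) and turned to -0.20 without both replicate 4 arrays. TadA mutant minus GF was 0.47 (limma adjusted p = 0.881) and 0.05 without them. CONV minus GF was 0.21 (limma adjusted p = 0.921).

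Rsad2 encodes viperin, an enzyme that makes an antiviral nucleotide, and is cluster 6799525 on chromosome 12. Its log2 signal was 5.95, 5.49, 6.22 and 5.98 in CONV and 5.34, 4.87, 5.58 and 5.81 in GF. It was 5.51, 5.02, 4.98 and 6.31 in UCC2003 and 5.25, 5.53, 4.49 and 5.87 in the TadA mutant. CONV had the highest mean, 5.91 ± 0.31, but overlapped every group. The means of UCC2003 (5.45 ± 0.62), GF (5.40 ± 0.41) and TadA mutant (5.28 ± 0.59) differed by less than their SDs. CONV minus GF was 0.51 ± 0.33 (SE; limma adjusted p = 0.562), or 0.33 without GF replicate 2. UCC2003 minus GF was 0.05 (limma adjusted p = 0.970) and turned to -0.23 without both replicate 4 arrays. TadA mutant minus GF was -0.12 (limma adjusted p = 0.957), or -0.31 without them.

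Ifit3, a partner that stabilises the RNA binding of IFIT1 in human cells, was measured in the gene-level table. Its columns held 5.47, 6.02, 5.64 and 7.03 in UCC2003 and 4.06, 3.50, 4.14 and 3.86 in the TadA mutant. They held 3.27, 4.39, 5.85 and 5.62 in GF and 5.48, 4.77, 3.40 and 4.75 in CONV. Every UCC2003 column lay above every TadA mutant column, by 1.33 log2 units at the nearest, while GF and CONV spread across that gap. All TadA mutant columns were dim, under the minimum of 5 used as an alternative below, and that minimum drops Ifit3. A fold against such dim values is uncertain. The means were 6.04 ± 0.70 (SD, n = 4) in UCC2003, 4.78 ± 1.19 in GF, 4.60 ± 0.87 in CONV and 3.89 ± 0.29 in the TadA mutant. UCC2003 minus TadA mutant was 2.15 ± 0.52 (SE), 4.44-fold, with an unadjusted limma p of 0.000748 and an adjusted p of 0.718. The table was selected for differences among UCC2003, TadA mutant and GF, so a contrast of this kind is what brought the gene into it. Adjusted over the 1793 genes of the table alone, which takes no account of that selection, the p was 0.0359. Ifit1, its neighbour with 2 ISRE core matches of its own, differed between the same groups by -0.12 (95% interval -1.27 to 1.04). Ifit3 has a near-identical neighbouring copy, and whether the probes separate them is not given in the sources used here.

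The transcription factors were measured 1 in each table. Stat2, the subunit that carries the activation domain of the ISRE-binding complex, held 7.55, 7.34, 7.05 and 7.26 in the columns of CONV and 6.44, 6.51, 6.74 and 6.53 in those of GF. It held 7.13, 6.89, 6.94 and 7.49 in UCC2003 and 6.80, 7.13, 7.01 and 7.28 in the TadA mutant. GF lay below all 12 columns of colonised mice, by 0.06 log2 units at the nearest, and the colonised groups overlapped one another. Selection of the table over UCC2003, TadA mutant and GF favours such gaps, and the share of its genes with one was not counted. The means were 7.30 ± 0.21 in CONV, 7.11 ± 0.27 in UCC2003, 7.06 ± 0.20 in the TadA mutant and 6.55 ± 0.13 in GF (SD, n = 4). CONV minus GF was 0.74 ± 0.14 (SE), 1.68-fold, just short of the threshold (limma adjusted p = 0.0558). It passed without column 3 of CONV, at 0.83, and without column 4 of UCC2003, at 0.74. Those were the only 2 of 16 runs leaving out 1 column in which it passed, and the limma adjusted p reached 0.222 in the others. UCC2003 minus GF was 0.56 (limma adjusted p = 0.427) and TadA mutant minus GF was 0.50 (limma adjusted p = 0.843), and these 3 differences share the GF columns.

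Irf7, the factor that amplifies type I interferon production, is cluster 6972192 on chromosome 7. Its log2 signal was 7.51, 7.39, 7.37 and 8.50 in UCC2003 and 7.40, 8.08, 7.72 and 8.03 in the TadA mutant. It was 7.14, 7.52, 7.68 and 7.55 in GF and 7.78, 7.63, 7.70 and 7.92 in CONV. UCC2003 replicate 4 was the highest of all 16 and stood 1.07 above the mean of the others of its group. The means, 7.81 ± 0.32 in the TadA mutant, 7.76 ± 0.12 in CONV, 7.69 ± 0.54 in UCC2003 and 7.47 ± 0.23 in GF, came from groups that all overlapped. CONV minus GF was 0.29 (limma adjusted p = 0.658) and TadA mutant minus GF 0.34 (limma adjusted p = 0.828), or 0.26 without both replicate 4 arrays. UCC2003 minus GF was 0.22 (limma adjusted p = 0.785) and turned to -0.04 without UCC2003 replicate 4.

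**Figure D3:**
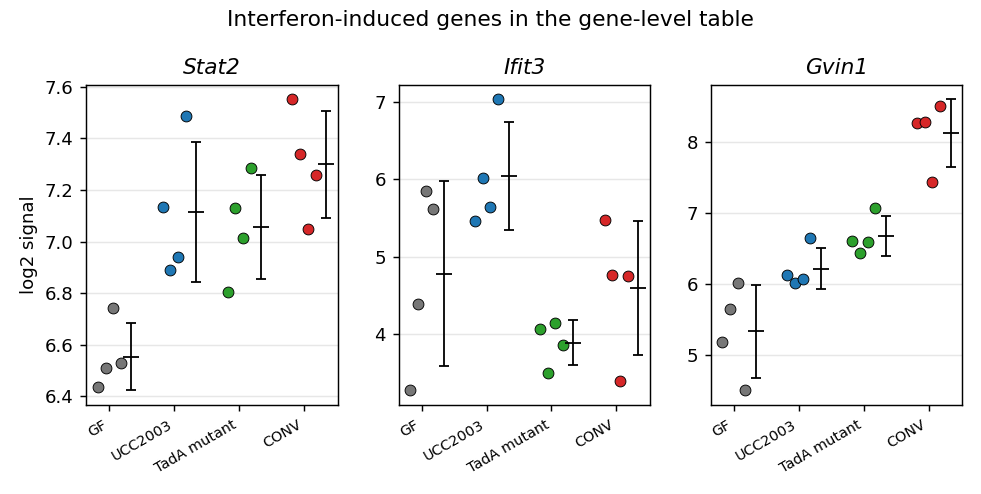
Log2 signal (y axes, separate scales) of Stat2, Ifit3 and Gvin1 in the gene-level table; points are the 4 columns of each group in the order of the table, and bars give their mean and SD. GF lies below the colonised groups for Stat2, UCC2003 above the TadA mutant for Ifit3, and CONV above all groups for Gvin1, between 7.43 and 8.51. No difference of Stat2 or Ifit3 was called.

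Counted together, 5 of 5 array genes were higher in UCC2003 than in GF, with a median difference of 0.22 against 0.04 over all clusters, and 0 were called, where 0.0214% of all clusters were. The median turned to -0.04 without UCC2003 replicate 4. Of the 5, 4 were higher in the TadA mutant than in GF, with a median of 0.34 (0.05 without TadA mutant replicate 4), and 0 were called. By limma 0% of all clusters were called there, although 1403 had an unadjusted p under 0.05, none of them an interferon-induced gene. Between UCC2003 and the TadA mutant 1 was higher and 4 lower, with 0 called, where 0.00857% of clusters were called. In CONV minus GF 5 were higher with a median of 0.51 (0.33 without GF replicate 2) and 1, Cxcl9, was called, where 1.89% of clusters were. CONV minus UCC2003 and CONV minus TadA mutant each called Cxcl9 alone of the 5, where 3.03% and 1.4% of clusters were called. Over the 4 groups together, limma's moderated F test called Cxcl9 (adjusted p = 0.000192) and none of the other 4, with 1.63% of clusters called. Adjusted p was 0.293 for Irgm1, 0.621 for Rsad2, 0.751 for Irf7 and 0.923 for Ifit1.

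Of the 3 genes of the gene-level table, 0 were called in UCC2003 minus GF, TadA mutant minus GF or UCC2003 minus TadA mutant, where 0.279%, 0% and 0.223% of its genes were. In CONV minus GF and CONV minus UCC2003, Gvin1 alone was called, where 3.46% and 4.13% of genes were. In CONV minus TadA mutant 0 of the 3 were called, where 1.28% were. The plot of differences between groups shows the 2 genes that passed.

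**Figure D4:**
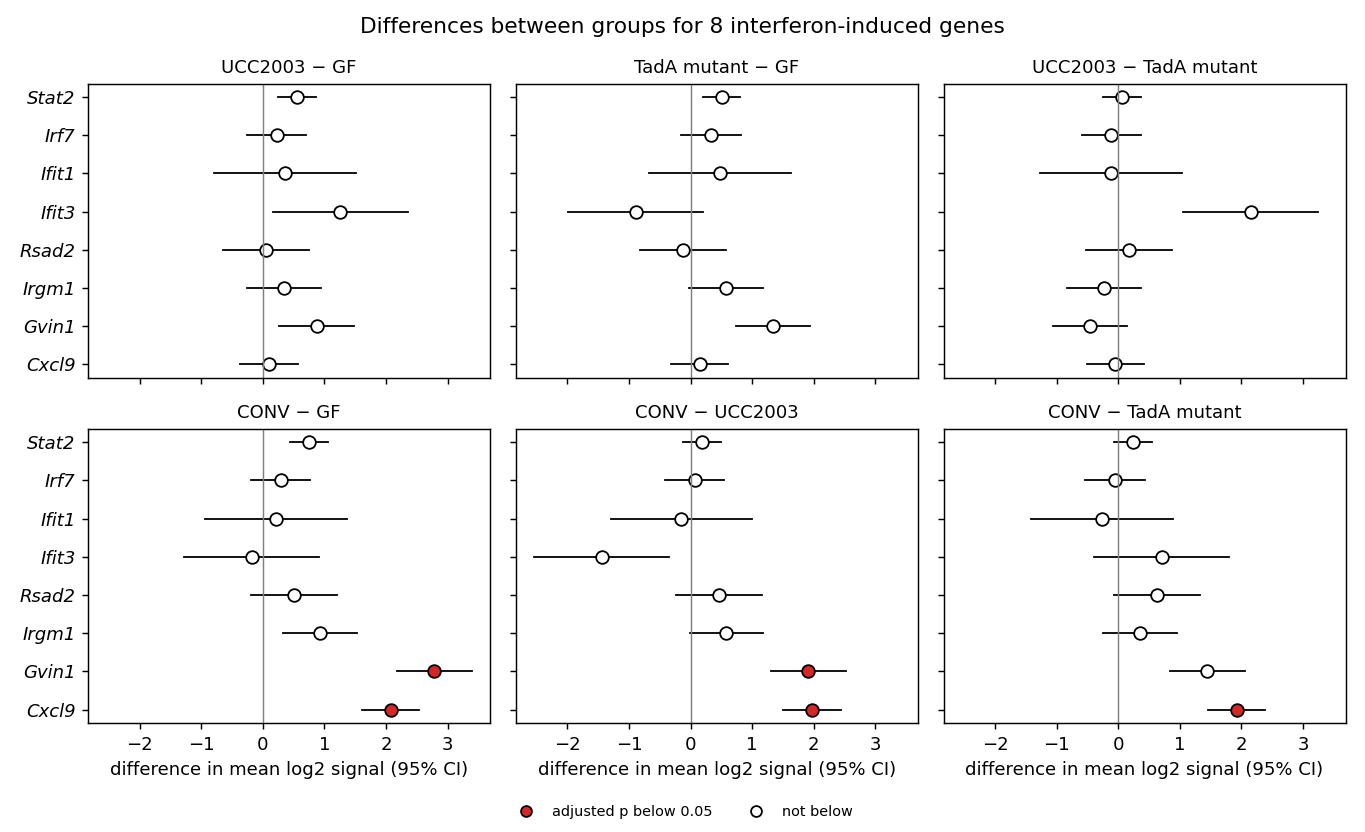
Differences in mean log2 signal (x axis) with 95% confidence intervals for the 8 interferon-induced genes in the 6 comparisons; filled points have a limma adjusted p below 0.05. Gvin1 and Cxcl9 are the filled points, in comparisons with CONV, and the interval of Ifit3 for UCC2003 minus TadA mutant, 1.06 to 3.25, is not filled because its adjusted p is 0.718.

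The rest of the pathway was followed through 8 lists of interferon ligands, receptors, signalling genes, nucleic acid sensors and interferon-induced effectors. Of 182 listed genes outside the 8, 24 had array values and 13 were in the gene-level table. Genes were looked up by symbol, which 2039 of the 23332 clusters carry, so those not found were not necessarily unmeasured. In CONV minus GF, 19 of 24 and 12 of 13 were higher, with 2 and 4 called upward and none called downward. Over all features 51.5% of clusters and 48.6% of gene-level genes were higher there, and 1.89% and 3.46% were called. In UCC2003 minus GF, 11 of 24 and 10 of 13 were higher, where 59.2% and 41.4% of all features were, with 0 called. In TadA mutant minus GF 16 of 24 and 12 of 13 were higher, where 56.2% and 49.4% of all features were, with 0 called. The 2 called on arrays in CONV minus GF were Tmem173 and Irf8, and the 4 in the gene-level table were Gbp8, Samhd1, Psmb9 and Nlrc5. CONV minus UCC2003 called 4 on arrays (Tmem173, Cxcr3, Ticam1 and Socs3) and 2 at gene level (Gbp8 and Nlrc5), where 3.03% and 4.13% of all features were called. There 22 of 24 and 13 of 13 were higher, where 47.7% and 59.2% of all features were. CONV minus TadA mutant called Tmem173 alone, where 1.4% of clusters and 1.28% of gene-level genes were called. In it 19 of 24 and 13 of 13 were higher, where 49.7% and 51.9% of all features were.

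The ligands themselves passed no test. Of 6 with array values, 2 were higher in CONV than in GF. Ifng, the gene of interferon gamma, had a mean of 5.70 ± 0.27 in CONV, 5.64 ± 0.13 in UCC2003, 5.58 ± 0.20 in the TadA mutant and 5.58 ± 0.28 in GF (SD, n = 4), and CONV minus GF was 0.12 (limma adjusted p = 0.820). These Ifng means lay below the array medians of 5.91 to 6.03, whereas those of Ifna14, another of the 6, lay above them in every group. Whether the ligand signals stood above background was not tested, so a change in them could have been missed. For Ifnl2, a type III interferon listed at gene level, UCC2003 minus GF was -0.44 (limma adjusted p = 0.460). Ifnlr1, the receptor chain for type III interferon, differed by 0.06 between CONV and GF (limma adjusted p = 0.872).

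Among the nucleic acid sensors, Tmem173, which encodes the DNA-sensing adaptor STING, rose in CONV. Its mean was 8.14 ± 0.29 in CONV, 7.01 ± 0.05 in the TadA mutant, 6.99 ± 0.24 in UCC2003 and 6.78 ± 0.25 in GF. The difference of CONV was 1.36 from GF, 1.15 from UCC2003 and 1.13 from the TadA mutant (limma adjusted p = 0.000254, 0.00123 and 0.00175). Ticam1, the adaptor of Toll-like receptors that leads to interferon, rose by 0.35 in CONV over UCC2003 (limma adjusted p = 0.0320). Among signalling genes Irf8, a factor of macrophage and dendritic cell lineages that is also on the dendritic cell list below, rose by 0.71 in CONV over GF (limma adjusted p = 0.0170). Socs3, a feedback inhibitor of cytokine signalling, rose by 1.60 in CONV over UCC2003 (limma adjusted p = 0.0498). Its mean was 4.82 in CONV, 3.64 in the TadA mutant, 3.27 in GF and 3.22 in UCC2003. All of these means lay under the minimum of 5 used as an alternative, so the size of this rise is uncertain. CONV arrays spread from 3.81 to 6.38, with the highest on replicate 2. Irf1, a direct target of interferon gamma, was 0.56 higher in CONV than in GF and did not pass (limma adjusted p = 0.116).

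Gvin1 was not alone among the GTPases. Gbp8, a guanylate-binding protein, rose in CONV over GF by 1.27 (limma adjusted p = 0.00321) and over UCC2003 by 0.90 (limma adjusted p = 0.0419). Gbp4 of the same family had a CONV minus GF difference of 1.22 that did not pass (limma adjusted p = 0.195). Of the antigen-processing genes, Psmb9, a subunit of the immunoproteasome, rose by 1.30 in CONV over GF (limma adjusted p = 0.0222). Nlrc5, the transactivator of MHC class I genes, rose by 0.79 over GF and by 0.82 over UCC2003 (limma adjusted p = 0.0235 and 0.0166). Ciita, its MHC class II counterpart, was 0.94 higher in CONV than in GF (limma adjusted p = 0.0639). Among other effectors Samhd1, which depletes the nucleotides used by viruses, rose by 1.19 in CONV over GF (limma adjusted p = 0.0147). Cxcr3, the receptor of Cxcl9, rose by 0.99 in CONV over UCC2003 (limma adjusted p = 0.0118), and was 0.64 higher in CONV than in GF (limma adjusted p = 0.113).

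Some markers of immune cells rose in CONV over GF as well. The log2 summed signal of 4 of 14 listed macrophage and monocyte markers (Cd14, Lyz1, C1qa and C1qb) was 10.95 to 11.41 in CONV and 9.64 to 9.98 in GF, with 10.02 to 10.39 in UCC2003 and 9.96 to 10.28 in the TadA mutant. Cd14, at a mean of 10.81 in CONV, was the brightest of the 4 and makes up most of this sum. Cd14 rose by 1.67 in CONV over GF (limma adjusted p = 5.18e-06) and C1qb by 0.89 (limma adjusted p = 0.0101). Lyz1 and C1qa were not called there, and whether Lyz1 marks these cells in this tissue was not tested. Against UCC2003 and against the TadA mutant, 3 of the 4 were higher in CONV. C1qa was lower, with a mean of 7.20 in CONV, 7.28 in UCC2003 and 7.43 in the TadA mutant. In the gene-level table the summed signal of Csf1r and C1qb, 2 of the 14 listed, was 7.91 to 8.18 in CONV and 7.23 to 7.58 in GF. It was 7.73 to 7.89 in UCC2003 and 7.66 to 7.96 in the TadA mutant. Both genes were called in CONV minus GF, and neither in CONV minus UCC2003 or CONV minus TadA mutant. Cd3g, the 1 of 15 listed T and NK cell markers in the gene-level table, was 5.85 to 6.86 in CONV and 5.09 to 5.36 in GF, a rise of 1.07 (limma adjusted p = 0.0369). The summed B cell markers, 5 of 12 listed, were 7.28 to 7.88 in GF, 8.04 to 8.90 in UCC2003, 7.82 to 8.79 in the TadA mutant and 8.30 to 9.30 in CONV, with 0 of the 5 called in any comparison and a median CONV minus UCC2003 difference of 0.05. For dendritic cells (2 of 12 listed) the range was 7.17 to 7.90 in CONV and 6.82 to 7.18 in GF, and for neutrophils (2 of 10) 6.31 to 8.66 and 5.96 to 6.92. These ranges overlap, and of the 4 genes Irf8 alone was called in CONV minus GF. The summed smooth muscle markers, 3 of 11 listed, were 10.43 to 10.70 in CONV, 10.77 to 11.37 in GF, 11.36 to 11.51 in UCC2003 and 11.11 to 11.61 in the TadA mutant. None was called in CONV minus GF, whereas Cnn1 fell by 0.94 in CONV against UCC2003 and against the TadA mutant (limma adjusted p = 0.00224 and 0.00278). The 4 smooth muscle markers of the gene-level table overlapped between CONV (10.17 to 10.47) and GF (10.32 to 10.80). The part of these cells in the rise of Cxcl9 and Gvin1 was not tested.

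The genes whose pattern was most like the interferon-induced genes were found by Pearson's correlation, over the 16 arrays, with the mean of the standardised values of the measured interferon-induced genes. Of 1968 other clusters with a single symbol, the highest were Slfn4 (0.86), Psca (0.79), Hist1h2bk (0.72), Asb11 (0.72), Cldn23 (0.71) and Rnf114 (0.70). In the gene-level table, of 1790 others, they were Ssh3 (0.87), Gbp4 (0.84), Dhx57 (0.83), Samhd1 (0.83), Parp14 (0.82) and Elf3 (0.81). These values describe the 16 arrays, which share the same 4 groups, and no test is attached. Slfn4, Gbp4, Samhd1 and Parp14 are themselves on the list of other interferon-induced genes. Slfn4 also had its highest UCC2003 value, 8.81, on replicate 4, and its means were 8.08 ± 0.15 in CONV, 7.78 ± 0.70 in UCC2003, 7.78 ± 0.42 in the TadA mutant and 7.41 ± 0.20 in GF.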

How the data were processed

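Colon RNA of 16 mice, 4 a group, was measured on exon arrays. The authors deposited log2 signal per transcript cluster, made by RMA in Affymetrix Expression Console 1.1 with mm9 and Partek named per the submitters' processing notes, and a gene-level log2 table from Subio Platform, named in the series' design text. The authors' deposited p-values and signed fold changes are quoted only where named. From the log2 values, limma 3.58.1 in R 4.3.3 fitted 1 coefficient per group over all 16 arrays, with Benjamini-Hochberg adjustment over 23332 clusters, or over 35860 tests for the gene-level table, which the authors had selected at 0.05 over UCC2003, TadA mutant and GF. The fit was tested on simulated data. The number of arrays limits precision. The 8 genes and the lists were chosen with earlier results of these data known. Of each pathway list up to 4 genes could be named, by the smallest p over the 4 groups or the widest range of group means. Marker levels are the log2 of summed linear signal. Where a symbol had several clusters the brightest was used. Alternatives were centring, quantile normalisation, a minimum of 5, a robust trended prior, only the groups compared, a replicate block, a pancreatic covariate and leaving out arrays. Leaving out both replicate 4 arrays of the Bifidobacterium groups was chosen after seeing the data. Promoter sequences are from RefSeq, GRCm38.p6.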

Additional observations from a re-analysis of the deposited data

Results flagged for a closer look

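Of 32 groups of 4 values examined for a value far from the rest, 1 stood out. In UCC2003, Irf7 was 8.50 on replicate 4, and the nearest other array of the group was 7.51, a gap of 0.869 of the whole range of the group. Chance flags about 1 in 20 groups. The same array was the highest of its group for Ifit1, Rsad2, Irgm1 and Cxcl9.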

How the results depend on the processing

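Cxcl9 kept its call in each CONV comparison, and Gvin1 its call in CONV minus GF and CONV minus UCC2003, under every alternative run for its table. The replicate block, the pancreatic covariate and leaving out both replicate 4 arrays were run on array values alone. Columns of the gene-level table name no replicate, so Gvin1, Stat2 and Ifit3 have no such result. Fitted on the 2 groups compared alone, calls on arrays were 2 in UCC2003 minus GF, 112 in CONV minus GF, 194 in CONV minus UCC2003 and 83 in CONV minus TadA mutant, and at gene level they were 2 in UCC2003 minus TadA mutant and 18, 17 and 9 in the CONV comparisons. Same-numbered arrays did not deviate together (correlations -0.305 to 0.206, 2 of 16 arrays closest to their own number). With the number as a replicate block, calls were 2 in UCC2003 minus GF, 293 in CONV minus GF and 381 in CONV minus UCC2003, with no call of an interferon-induced gene changed. The pancreatic covariate left 3 calls in UCC2003 minus GF. Without both replicate 4 arrays of the Bifidobacterium groups calls were 3 in UCC2003 minus GF, 298 in CONV minus UCC2003 and 152 in CONV minus TadA mutant. Differences then changed sign for UCC2003 minus GF of Rsad2 (-0.23), Ifit1 (-0.20) and Irf7 (-0.045), UCC2003 minus TadA mutant of Cxcl9 (0.071), CONV minus UCC2003 of Ifit1 (0.41), and CONV minus TadA mutant of Ifit1 (0.16) and Irf7 (0.026). Adjusted over the table's genes alone, with its selection ignored, 686, 230, 101, 256, 459 and 202 genes were called in UCC2003 minus GF, TadA mutant minus GF, UCC2003 minus TadA mutant and CONV minus GF, UCC2003 and TadA mutant. Of the interferon-induced genes 2, 2, 1, 2, 1 and 1 were then called, adding Stat2 and Gvin1 against GF in each Bifidobacterium group. A robust trended prior left 3 calls in UCC2003 minus GF of the gene-level table and called 2 interferon-induced genes in CONV minus GF, with Stat2 at an adjusted p of 0.0360. A minimum mean of 5, which drops Ifit3, also called 2 there and moved their median to 0.92 in TadA mutant minus GF, 1.76 in CONV minus GF and 1.05 in CONV minus UCC2003. Leaving out 1 array at a time, calls ranged from 1 to 6 in UCC2003 minus GF, 0 to 1 in TadA mutant minus GF, 1 to 3 in UCC2003 minus TadA mutant, and 241 to 454, 306 to 903 and 163 to 392 in CONV minus GF, UCC2003 and TadA mutant. In the gene-level table they ranged from 2 to 7, 0 to 1 and 1 to 6, and from 35 to 58, 36 to 82 and 17 to 34. Interferon-induced genes called there ranged from 1 to 2 in CONV minus GF and 0 to 1 in CONV minus TadA mutant. Differences that changed sign were UCC2003 minus GF of Ifit1 (-0.20 to 0.68), Irf7 (-0.045 to 0.33) and Rsad2 (-0.23 to 0.21), TadA mutant minus GF of Rsad2 (-0.31 to 0.15), and UCC2003 minus TadA mutant of Rsad2 (-0.11 to 0.37), Ifit1 (-0.68 to 0.31), Cxcl9 (-0.12 to 0.089) and Stat2 (-0.068 to 0.13). So did CONV minus UCC2003 of Ifit1 (-0.47 to 0.41) and Irf7 (-0.044 to 0.33), CONV minus TadA mutant of Ifit1 (-0.52 to 0.16) and Irf7 (-0.18 to 0.044), and CONV minus GF of Ifit3 (-0.69 to 0.22). The cause was not tested. Averaging all clusters of a symbol was not run, because each of the 8 genes has 1 row.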
